A study of Mus musculus with 2 samples.

Results

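The 10 genes listed here encode proteins of osteoclast fusion and bone resorption, or receptors that osteoclasts carry. They were examined in cells of the mouse macrophage line RAW264.7. The list was fixed by gene name as *Ctsk*, *Acp5*, *Atp6v0d2*, *Dcstamp*, *Ocstamp*, *Mmp9*, *Calcr*, *Oscar*, *Itgb3* and *Clcn7*. It was chosen with earlier results of these data known, so the counts of its genes are a description only. All 10 genes were present on the array, with 16 probe sets that name only 1 of them, out of 18193 genes in all. The 2 conditions were compared on Affymetrix Mouse Genome 430 2.0 GeneChips, namely RAW264.7 cells given scramble siRNA and RAW264.7 cells given *Flcn* siRNA, with 1 array each. In both, the medium was replaced by MEMα with 10% FCS 24 hours after transfection, and RNA was prepared 48 hours later. No label and no method stated for the arrays names RANKL, the cytokine that turns these cells into osteoclasts. With 1 array per condition and 1 siRNA sequence per condition, the differences could not be checked against replicates or tested, and an effect of the *Flcn* knockdown cannot be told apart from any other difference between the cultures.

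An osteoclast is a large multinucleated cell of the macrophage lineage that dissolves bone. Its precursors fuse, attach to bone through integrins, and seal off a space that they acidify with a proton pump and a chloride transporter before secreted proteases digest the exposed collagen. Folliculin, the product of *Flcn*, holds the transcription factors Tfe3 and Tfeb out of the nucleus, and genes of lysosomes and of the acid pump are among the known targets of these factors.

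Each value is a linear signal intensity without unit. On each array, the median probe set had a signal of 12.8 with scramble siRNA and 13.6 with *Flcn* siRNA. A probe set under the median on both arrays is given by its signals alone. For the others the difference is given as a log2 ratio, *Flcn* siRNA relative to scramble siRNA, with a signal under the median raised to it, and each gene is represented by its brightest probe set, as judged by the geometric mean of both signals. A difference of at least 1.5-fold in either direction was called, on its size only, among genes whose geometric mean signal reached 13.2. Probe sets differ in how brightly they report the same amount of RNA, so signals are compared between arrays, and signals of different genes are not ranked. The spread between probe sets of the same gene, which is technical and does not stand in for replicates, had a median SD of 0.19 on the log2 scale over 5034 genes, and of 0.26 over the 1034 of them whose brightest probe set had a mean signal under 100.

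Of the 10 genes, 6 passed the signal filter, namely *Ctsk*, *Acp5*, *Atp6v0d2*, *Dcstamp*, *Ocstamp* and *Clcn7*. Of these, *Ctsk* and *Atp6v0d2* were higher on the *Flcn* siRNA array by 1.5-fold or more, 4 differed by less, and 0 were lower by as much. Among all 10285 genes above the filter, 5.85% were higher and 5.52% were lower by that size. When both arrays were scaled to the same median, the higher genes made up 34.1% of all genes called in either direction, in place of 51.5%, and *Ctsk* and *Atp6v0d2* were again the only members called. The median log2 ratio of the 6 genes was 0.32, beside 0.013 over all genes above the filter. The other 4 genes, *Mmp9*, *Calcr*, *Oscar* and *Itgb3*, lay under the median on both arrays at each of their probe sets. The filter separated *Ocstamp*, with a geometric mean signal of 24.3, from *Oscar*, with 7.84. In RNA of a whole culture, more cells that carry a transcript and more of it per cell cannot be told apart.

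**Figure D1:**
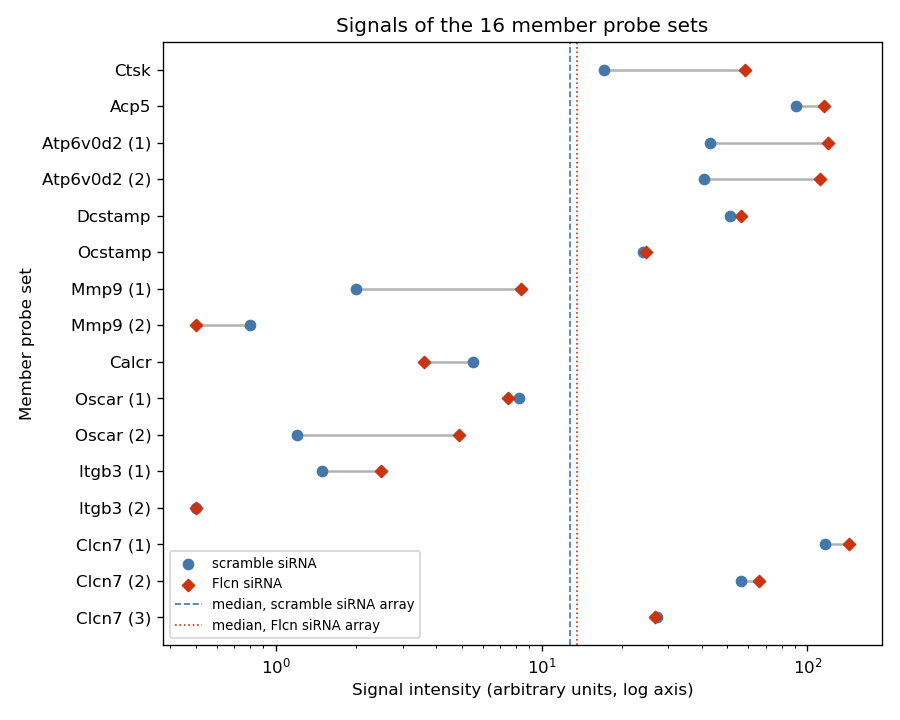
Signal intensity (log axis) of the 16 probe sets of the 10 genes, with circles for the scramble siRNA array and diamonds for the *Flcn* siRNA array; numbers in parentheses count the probe sets of 1 gene from the brightest. The vertical lines are the array medians, 12.8 and 13.6. *Ctsk* and both probe sets of *Atp6v0d2* have the widest gaps among the 9 probe sets to the right of the lines, and 7 probe sets lie to the left of them.

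The largest ratio in the group was that of *Ctsk*, which encodes cathepsin K, the cysteine protease with which osteoclasts degrade bone collagen. The gene lies at chr3:95499210-95509387 in GRCm38.p6 and has 1 probe set here. Its signal was 17.2 with scramble siRNA and 58.4 with *Flcn* siRNA, so that the probe set moved from the 54.6th to the 69.7th percentile of its array. The log2 ratio was 1.76, or 3.40-fold. The scramble siRNA signal stood close to the median of that array and was no higher than the brightest marker of a cell type other than macrophages, *Sp7* with 20.0, so it was not separated from background. With signals raised to the brightest such marker on each array, 20.0 and 22.0, a floor chosen after the values were seen, *Ctsk* was at least 2.92-fold higher, a log2 ratio of 1.55. Genes with a mean signal under 100 passed 1.5-fold more often than others, with 11.0% of 3657 such genes higher and 8.53% lower, beside 3.02% and 3.86% of 6628 genes with a signal of 100 or more.

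*Atp6v0d2* encodes the d2 subunit of the membrane part of the vacuolar proton pump, an isoform abundant in osteoclasts that is needed for efficient fusion. The gene lies at chr4:19876838-19922566. Its brighter probe set had a signal of 43.0 with scramble siRNA and 119 with *Flcn* siRNA, a log2 ratio of 1.47 or 2.77-fold. The other probe set, designed to a different sequence record, had 40.8 and 112, a log2 ratio of 1.45 or 2.73-fold. Both probe sets stood above the median on both arrays and gave nearly the same difference. The gene held rank 13 from the highest among all genes above the filter, and rank 12 among the 3657 weaker ones. *Atp6v0d1*, the ubiquitous isoform of the same subunit, which was looked up after these values were seen, had 1807 with scramble siRNA and 1519 with *Flcn* siRNA, a log2 ratio of -0.25.

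*Clcn7*, at chr17:25133378-25162103, encodes the chloride and proton exchanger that balances the charge moved by the pump in lysosomes and at the ruffled border of the osteoclast. Its brightest probe set had 117 with scramble siRNA and 144 with *Flcn* siRNA, a log2 ratio of 0.30. The second had 56.4 and 65.7, a log2 ratio of 0.22. The third had 27.1 and 26.8, a log2 ratio of -0.016. None of the 3 probe sets reached 1.5-fold, and the dimmest lay on the other side of 0.

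*Acp5* encodes tartrate-resistant acid phosphatase, the enzyme behind the TRAP stain used to count osteoclasts. It lies at chr9:22126727-22135746 and has 1 probe set, which had a signal of 90.8 with scramble siRNA and 116 with *Flcn* siRNA. The log2 ratio was 0.35, or 1.27-fold, and 15.1% of all genes above the filter had a ratio at least as high. The difference was under 1.5-fold. The ID of this probe set marks it as shared by several transcripts of a gene, so *Acp5* has no value when only probe sets unique to 1 transcript are used.

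The genes of the fusion receptors differed little between the arrays. *Dcstamp*, at chr15:39745930-39760938, encodes a membrane protein without which osteoclast precursors stay mononuclear. Its signal was 51.0 with scramble siRNA and 56.4 with *Flcn* siRNA, a log2 ratio of 0.15, and 32.7% of genes had a ratio at least as high. *Ocstamp*, at chr2:165395450-165400394, encodes a related membrane protein that is also needed for fusion. Its signal was 24.0 and 24.6, a log2 ratio of 0.036, which was -0.052 with both arrays scaled to the same median and -0.012 with quantile normalization. For both genes the difference was under the median SD between probe sets of the same gene.

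**Figure D2:**
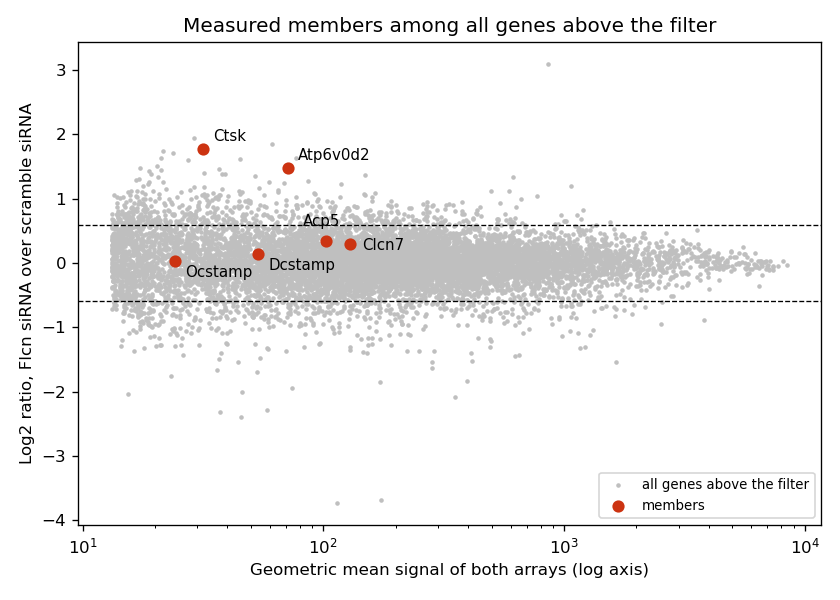
Log2 ratio (*Flcn* siRNA relative to scramble siRNA) against the geometric mean signal of both arrays (log axis) for the 10285 genes above the filter (grey) and the 6 measured genes of the group (red), from 1 array per condition. Dashed lines mark 1.5-fold. *Ctsk*, at 1.76, and *Atp6v0d2*, at 1.47, stand near the upper edge of the cloud, and the other 4 lie between 0.036 and 0.35.

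The remaining members had signals in the lower part of both arrays. *Mmp9*, which encodes a gelatinase that osteoclasts secrete, lies at chr2:164940326-164955850. One of its probe sets had 2.0 with scramble siRNA and 8.4 with *Flcn* siRNA, and the other had 0.8 and 0.5. *Calcr*, at chr6:3685678-3764713, encodes the calcitonin receptor, a marker of mature osteoclasts, and had 5.5 and 3.6. *Oscar*, at chr7:3609813-3616157, encodes an activating receptor for collagen that signals through the chain Fcer1g, and had 8.2 and 7.5 at one probe set and 1.2 and 4.9 at the other. *Itgb3*, at chr11:104608000-104670476, encodes the β3 chain of the vitronectin receptor, and had 1.5 and 2.5 at one probe set and 0.5 on both arrays at the other. The probe sets of *Mmp9* differed in direction, as did those of *Oscar*, and no ratio is given for signals this low. A difference between the conditions was not detectable for these genes at this signal, and low signals do not show that the transcripts were absent.

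As a reference for such signals, genes that mark cells other than macrophages were read on the same arrays. Of 19 marker genes of osteoblasts, T cells, B cells, dendritic cells, fibroblasts and epithelial cells that have a probe set here, 17 lay under the filter, the exceptions being *Sp7*, of osteoblasts, and *Epcam*, of epithelial cells. Each gene was represented by its brightest probe set. Their signals ranged from 0.5 to 20.0 with scramble siRNA and from 0.3 to 22.0 with *Flcn* siRNA, their summed signal was 147 and 156, and 0 of them were at a signal of 0 on both arrays. With the highest of these signals on each array as the floor, the ratios of *Atp6v0d2*, *Acp5*, *Clcn7*, *Dcstamp* and *Ocstamp* did not change, since none of their signals at the probe sets used was raised. All 8 macrophage markers passed the filter, with signals from 374 to 6344 and from 319 to 6447 and sums of 23109 and 22162. *Csf1r*, the receptor of the macrophage growth factor M-CSF, had 5375 and 5318, while *Fcgr1*, an Fc receptor, was the 1 macrophage marker called lower, with 1033 and 380 and a log2 ratio of -1.44. Of the markers, *Itgam* is also on the list of companion genes below.

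The siRNA target *Flcn* itself differed by less than 1.5-fold. It had 209 with scramble siRNA and 145 with *Flcn* siRNA at one probe set, and 241 and 206 at the one that represents the gene. A further probe set, with 8.0 and 7.2, lay under the median on both arrays. *Gpnmb*, a known target of Tfe3, had 294 and 2500 at the probe set that represents it. Its other probe set had 11.5, under the median, and 61.3. Ratios of 3′ to 5′ signal of the control probe sets, a sign of RNA quality, were 1.44 with scramble siRNA and 1.34 with *Flcn* siRNA for actin and 0.846 and 0.797 for Gapdh. The part of these differences in the ratios above was not tested.

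For 4 of the 10 genes, *Ctsk*, *Acp5*, *Oscar* and *Itgb3*, the study also designed primers for quantitative RT-PCR, and of these *Ctsk* and *Acp5* passed the signal filter on the arrays. The primers are printed 5′ to 3′ because they identify the transcripts that the study chose as readouts of osteoclast differentiation, and the table of the study lists *Acp5* as Trap and *Itgb3* as Integrinb3.
*Ctsk* forward primer: atcttgtggactgtgtgactgagaatta
*Ctsk* reverse primer: gccgtggcgttatacatacaactt
*Itgb3* forward primer: aatgtcgtcagcctttaccagaa
*Itgb3* reverse primer: tcccgtaagcatcaacaatgag
*Oscar* forward primer: ctggaactgctggtaacggat
*Oscar* reverse primer: ccagggctgcacagagtcaata
*Acp5* forward primer: gctggaaaccatgatcacct
*Acp5* reverse primer: gagttgccacacagcatcac
The positions of the primers and of the probe sets along the transcripts were not compared, and *Oscar* and *Itgb3* had too little signal on the arrays for a comparison.

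RefSeq promoter windows, which span 250 bases before to 50 bases after a transcription start in GRCm38.p6, were at hand for *Ctsk*, *Calcr*, *Oscar*, *Acp5* and *Clcn7*, with 9 windows for these 5 genes. *Atp6v0d2*, *Dcstamp*, *Ocstamp*, *Mmp9* and *Itgb3* had none in the table used. The 9 windows were searched on both strands for the palindromic E-box CACGTG that Tfe3 and Tfeb bind, for the related core of the M-box, CATGTG, read from the other strand as CACATG, and for the palindromic AP-1 motif TGANTCA. None of these motifs overlapped in a member window. CACGTG occurred in 1 of the 9 windows, beside 7.15% of all 32851 windows in the table. CATGTG occurred in 3 of the 9, beside 14.2% of all windows, and TGANTCA in 0 of the 9, beside 7.81%. The windows of *Ctsk*, the member with the highest ratio, and of *Clcn7*, the member with the E-box, are shown with the motif in capitals.
*Ctsk*, chr3:95498960-95499259, plus strand: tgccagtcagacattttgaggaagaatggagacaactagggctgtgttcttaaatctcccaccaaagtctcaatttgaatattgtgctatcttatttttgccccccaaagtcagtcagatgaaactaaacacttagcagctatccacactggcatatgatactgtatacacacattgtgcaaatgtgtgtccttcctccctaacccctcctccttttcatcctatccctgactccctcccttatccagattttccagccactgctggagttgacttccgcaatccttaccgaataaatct
*Clcn7*, chr17:25133141-25133440, plus strand: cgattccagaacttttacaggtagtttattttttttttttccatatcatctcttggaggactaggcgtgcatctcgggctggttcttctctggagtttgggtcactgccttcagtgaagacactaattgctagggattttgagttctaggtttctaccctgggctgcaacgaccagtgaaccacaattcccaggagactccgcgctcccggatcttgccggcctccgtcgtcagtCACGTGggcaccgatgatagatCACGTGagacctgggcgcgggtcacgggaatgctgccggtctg
The *Clcn7* window holds CACGTG at positions -15 and 8 from the transcription start. The *Ctsk* window holds none of the 3 motifs. CACATG stood at position -6 of *Oscar* and at -90 of 1 of the *Acp5* windows, and CATGTG at -41 of a second *Clcn7* window. A match is a description of letters and not of a bound site.

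Companion genes from a list of 66 that act beside the members were read in the same way, and 57 passed the signal filter. Of these, 3 were higher by 1.5-fold or more and 0 were lower. A log2 ratio above 0 was found for 33 and below 0 for 24, beside 51.7% of all genes above 0, and the median was 0.059. That median was -0.029 with both arrays scaled to the same median. Such scaling lowers every ratio by the same amount, so the counts above 0 and the group medians near 0 given below depend on it. Among all genes above the filter, 5.85% were higher and 5.52% were lower. Most companions were bright, and 51 of them were left with the signal filter at the 75th percentile, with 0 called. Of all genes with a mean signal of 100 or more, 3.02% were higher and 3.86% lower. The 3 called companions had signals under 100 on both arrays, and of genes with a mean signal under 100, 11.0% were higher and 8.53% lower.

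Other genes of acid secretion differed by less than 1.5-fold at the probe set that represents each, with 9 measured and 5 of them above 0, and the group median was 0.10. The highest was *Atp6v1b2*, a subunit of the cytosolic part of the proton pump, which had 644 with scramble siRNA and 775 with *Flcn* siRNA, a log2 ratio of 0.27. *Tcirg1*, which encodes the a3 subunit of the pump at the ruffled border, had 589 and 708, a log2 ratio of 0.26. The lowest was *Snx10*, a sorting nexin needed for the ruffled border, with 852 and 683, a log2 ratio of -0.32. *Ostm1*, which encodes the partner chain of the Clcn7 protein, had 377 and 343, a log2 ratio of -0.14. *Tcirg1* and *Ostm1* were named after their values were seen. Probe sets that do not represent their gene passed 1.5-fold for *Snx10*, with a log2 ratio of -0.71, and for *Plekhm1*, which encodes an adaptor of lysosome traffic. That of *Plekhm1* had 18.5 and 38.2, a log2 ratio of 1.05, beside 370 and 435, a log2 ratio of 0.23, at the one that represents the gene, and the gene was called higher, at 0.64, when all its probe sets were averaged. *Plekhm1* was named after these values were seen.

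Among matrix enzymes and their inhibitors 7 genes were measured, with a median log2 ratio of 0.23. *Timp2*, an inhibitor of metalloproteinases, was called higher with 31.9 and 62.0, or 1.94-fold, though its lowest probe set above the filter had a log2 ratio of 0.054. The cathepsin genes *Ctsb*, *Ctsl* and *Ctss*, lysosomal proteases that macrophages also use and which were named here as relatives of *Ctsk* after their values were seen, had log2 ratios of 0.25, -0.014 and 0.17. Their signals were between 3738 and 5103 with scramble siRNA and between 3925 and 6072 with *Flcn* siRNA. *Ctsk* was the only 1 of these 4 cathepsin genes that was called.

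Other genes linked to fusion had the lowest group median, -0.14 over 9 measured genes, with 3 above and 6 below 0. The highest was *Cd200r1*, a receptor for the surface protein CD200, at 0.23, and the lowest was *Sirpa*, the receptor for CD47, which had 984 with scramble siRNA and 763 with *Flcn* siRNA, a log2 ratio of -0.37. No gene of this group was called at the probe set that represents it. Other probe sets of *Cd47*, named after its values were seen, were lower by more than 1.5-fold. They had 816 and 483, a log2 ratio of -0.76, and 765 and 496, a log2 ratio of -0.63. The one that represents *Cd47* had 1609 and 1311, a log2 ratio of -0.30. In the other direction, the second and dimmer probe set of *Cd200r1* passed 1.5-fold, with a log2 ratio of 0.83. Its signals are not given here, and the ratio may rest on a scramble siRNA signal raised to the median.

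Of 15 measured genes of adhesion, podosomes and the sealing zone, 10 lay above 0, with a median of 0.14. Probe sets that do not represent their gene passed 1.5-fold upward for *Itgb1*, *Pxn* and *Cbl*, named after their values were seen. Their log2 ratios were 1.03, 0.62 and 0.62, beside 0.035, -0.23 and 0.14 at the probe sets that represent the genes. Another probe set of *Itgb1* was at -0.20. No probe set of this group above the filter was lower by 1.5-fold. *Src*, the tyrosine kinase needed for the ruffled border, had 8.6 with scramble siRNA, under the median of that array, and 27.5 with *Flcn* siRNA. It was 2.15-fold higher with the former raised to the median, and 1.38-fold, no longer called, with the marker signals as the floor. *Itgav*, which encodes the α chain that pairs with the β3 chain of *Itgb3* and was named for that after its value was seen, had 661 and 751, a log2 ratio of 0.18.

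Among receptor partners and signalling genes 8 were measured, with a median of 0.010. *Sirpb1a*, an activating receptor of myeloid cells, had 11.7 with scramble siRNA, also under the median, and 22.3 with *Flcn* siRNA. It was 1.74-fold higher with the median as the floor and 1.12-fold, no longer called, with the marker signals. *Fcer1g*, the signalling chain of the Oscar receptor, which was named for that after its value was seen, had 2439 and 1997, a log2 ratio of -0.29. *Syk*, also named after its values were seen, had a log2 ratio of 0.17 at the probe set that represents it. Another of its probe sets passed 1.5-fold, with a log2 ratio of 0.65.

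Of 9 measured lineage regulators none was called, and the median was 0.089. The highest was *Tnfrsf11a*, which encodes the RANKL receptor RANK, with 99.1 and 121, a log2 ratio of 0.28. The lowest was *Irf8*, a transcription factor that restrains osteoclast formation, with 429 and 345, a log2 ratio of -0.32. *Nfatc1*, the main transcription factor of osteoclast formation, named after its value was seen, had 213 and 228 at the probe set that represents it, a log2 ratio of 0.099. The highest ratio among its dimmer probe sets above the filter was 0.86, which is past 1.5-fold. The signals of that probe set are not given here, and its ratio may rest on a scramble siRNA signal raised to the median.

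**Figure D3:**
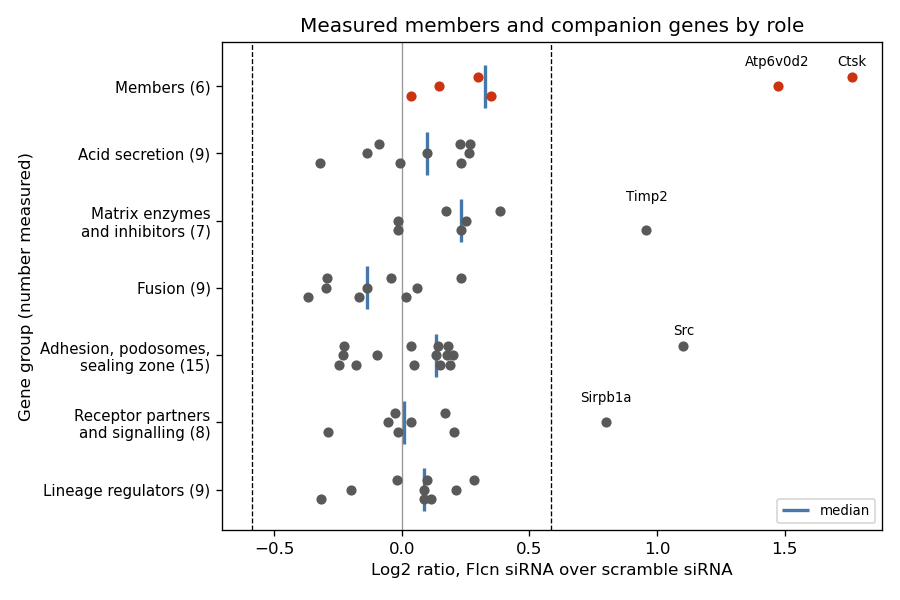
Log2 ratio (*Flcn* siRNA relative to scramble siRNA) for the 6 measured genes of the group (red) and the 57 measured companion genes (grey) by role, each point 1 gene from 1 array per condition, with blue bars for medians and dashed lines for 1.5-fold. *Ctsk* and *Atp6v0d2* lie farthest to the right, and of the companions *Timp2*, *Src* and *Sirpb1a* lie past the right dashed line; the points of *Src* and *Sirpb1a* use a scramble siRNA signal raised to the array median.

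Each member's ratio was recomputed with other scalings, choices of probe set and floors, though not every setting could move every gene. *Ctsk*, with 1 probe set and signals above both medians, changed in 3 of 8 settings. Its log2 ratio was 1.68 with both arrays scaled to the same median, 1.73 with quantile normalization and 1.55 with the marker signals as the floor. *Atp6v0d2* changed in 3 of 8, with a lowest value of 1.38. Both were past 1.5-fold in these settings. The lowest log2 ratio was 0.17 for *Clcn7*, 0.26 for *Acp5* and 0.058 for *Dcstamp*, and the highest was the value given above.

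**Figure D4:**
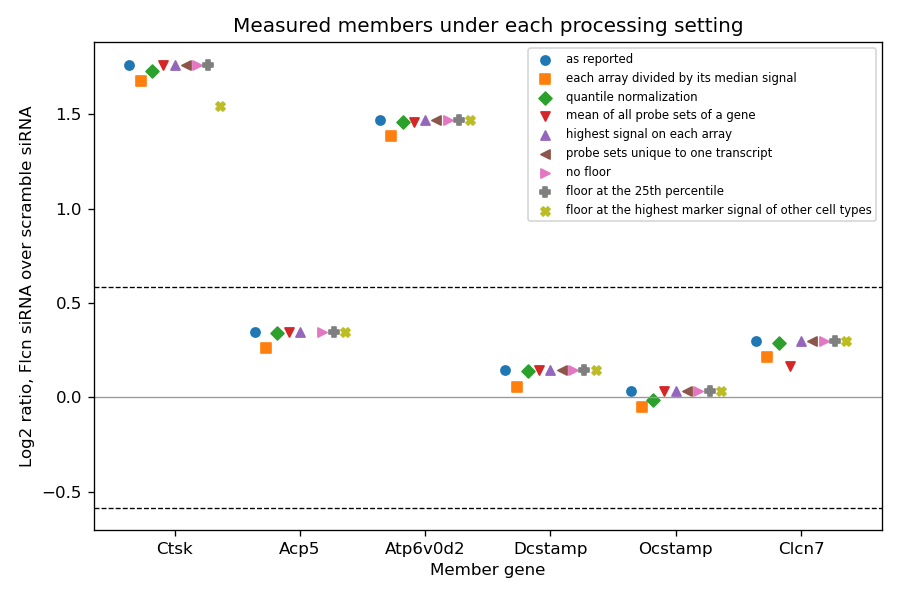
Log2 ratio (*Flcn* siRNA relative to scramble siRNA) of the 6 measured genes as reported and under 8 other settings, with dashed lines at 1.5-fold. *Ctsk* and *Atp6v0d2* stay above the upper line in every setting shown, and *Ocstamp* falls below 0 in 2 of them.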

How the data were processed

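Total RNA of RAW264.7 cells was hybridised to 1 GeneChip per condition. The authors processed the arrays with the Affymetrix software GCOS and deposited a linear signal intensity per probe set, with no detection calls beside it in the value table. No source used here gives the target to which GCOS scaled the arrays. With the top and bottom 2% of probe sets trimmed, both arrays had a mean of 100.0, so the deposited intensities are taken as already scaled. Of 45101 probe sets, 34958 name 1 gene in the platform annotation, and 34754 of these were matched by Entrez ID to RefSeq symbols of GRCm38.p6. Controls (64), probe sets with several genes (932) and those listing none (9211, controls among them) were left out. The floor, the filter and the 1.5-fold call are described above. Members, companion list and markers were chosen with earlier results of these data known. The genes named are all members, *Flcn*, *Gpnmb* and, for each companion role, those called or else the highest and the lowest, with exceptions stated beside them. The alternatives were other scalings, other choices of probe set, floors, filters and a 2-fold call, of which the floor at marker signals was chosen after seeing the data. With 1 array per condition, replicate error could not be estimated, and no precision can be given for any ratio. Sequencing depth does not apply to arrays. The functions were tested on simulated data. Python 3.11.15, numpy 2.4.6, pandas 2.3.3 and matplotlib 3.10.9 were used.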

Additional observations from a re-analysis of the deposited data

How the results depend on the processing

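No paired analysis was possible because each condition has 1 array. *Ctsk* and *Atp6v0d2* were called higher under each of the 11 alternatives but 1. With the signal filter at the 75th percentile of mean signal, only 2 of the 10 genes, *Acp5* and *Clcn7*, were left, so that 0 were called higher, and 0 of 51 companion genes. With no signal filter the median log2 ratio of the 10 genes was 0.12 in place of 0.32, because genes under the median on both arrays then take the fixed ratio of both medians. At 2-fold, 1 companion, *Src*, was called higher. With probe sets unique to 1 transcript, *Src* was no longer called and 1 companion was called lower, *Cd47* with a log2 ratio of -0.76. With the mean of all probe sets, *Src* and *Timp2* were no longer called, *Plekhm1* was, and 2 companions were higher, *Sirpb1a* being the other. With the floor at the highest marker signal, added after seeing the data, 1 companion was higher, *Timp2*, and the log2 ratio of *Ctsk* was 1.55. With that exception, the value of each measured member moved by under 0.19, the median SD given in the report. Over all genes, 87 were higher and 113 were lower at 2-fold in place of 602 and 568 at 1.5-fold, and 214 and 268 with the filter at the 75th percentile. Weak signal limits the ratio of *Ctsk*, and *Mmp9*, *Calcr*, *Oscar* and *Itgb3* gave no ratio.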
